A study of Mus musculus with 38 samples.

Results

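The genes described here are 10 imprinted genes of growth control, Grb10, Igf2, H19, Igf2r, Dlk1, Peg3, Peg10, Mest, Plagl1 and Ndn. They were found by symbol, all 10 of 10, among 21705 genes measured by RNA sequencing. Grb10 was the reason for the choice, because it was among the largest rises in VIM-3039 over VM-3055 tumour cells. The members were thus chosen by the levels of Grb10 in those lines, and the difference between the lines in Dox is therefore given below as a description, with no test. Tests between the same lines without Dox are not independent of that choice, nor are differences in Dox effect that use these lines.

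An imprinted gene is read mainly from the copy inherited from a single parent, and the parental copies differ in marks, often DNA methylation, that were set in the egg or sperm. Many genes of this kind act on growth before birth, where those read from the father's copy (Igf2, Dlk1, Peg3, Peg10, Mest, Plagl1 and Ndn) and those read from the mother's copy (H19, Igf2r and, outside neurons, Grb10) often have opposing effects. Loss of imprinting at Igf2 and H19 is well known in embryonal kidney tumours. The values here do not separate the parental copies, so imprinting itself was not measured.

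The libraries came from 3 mouse genotypes of renal carcinoma and from wild-type kidney. MYC mice carried Ksp-rtTA and Tet-O-MYC transgenes, so that doxycycline (Dox) switched on human MYC in renal tubule cells, where the Ksp-cadherin promoter is active. VM mice also lost Vhl in those cells through a tamoxifen-inducible Ksp-driven Cre, and VIM mice lost Ink4a/Arf (Cdkn2a) as well, through a germline deletion present in every cell of the animal. From each genotype 1 cell line (MYC-2983, VM-3055 and VIM-3039), grown from 1 tumour, was sequenced as 4 libraries with Dox (2 µg/ml) and 4 without, collected 24 h after plating. The study's methods describe growing its tumour lines in medium with Dox, and it calls this contrast Dox removal. A rise or fall with Dox below thus compares cells plated in Dox with cells plated without it, not Dox added to untreated cells. Tissue came from 3 MYC, 3 VM and 3 VIM tumours of mice kept on Dox and from 5 wild-type kidneys given vehicle, 2 of them from B6 mice and 3 with the prefix KT. The 3 MYC tumours came from 2 mice, since replicates 2 and 3 share mouse 2983. The labels give no age. Nothing states that the 4 libraries of a cell group were separate cultures, so p-values over cells measure the spread between these libraries.

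Levels are given in units of the deposited table, in which each library was scaled so that its upper quartile is 1000, and they compare 1 gene between libraries, not genes with each other. The libraries held between 8215703 and 36578653 estimated reads, and 3 reads, used below as the floor, were worth between 1.16 and 5.65 units. The sample numbers that end the titles of the MYC-2983 libraries start again at 1, while VM-3055 and VIM-3039 share 1 series. What these numbers mark is not stated, so line and any run they stand for cannot be told apart where MYC-2983 is compared with the other lines. With Dox, Vhl averaged 451 units in MYC-2983 cells, 13.1 in VM-3055 and 12.7 in VIM-3039, and Cdkn2a averaged 29.98 in VIM-3039 against 3804 in VM-3055. In tissue Vhl averaged 499 units in MYC, 53.6 in VM and 252 in VIM tumours, against 686 in kidney. The mouse Myc row averaged 676 units with Dox against 1831 without in MYC-2983, 384 against 1364 in VM-3055 and 381 against 1479 in VIM-3039. It therefore gives no check that Dox raised MYC. Of 10 kidney tubule markers, Slc34a1, Umod and Aqp2 were at or under the floor in every library of the 3 lines, and the sum of the 10 ran from 8968 to 22921 units in cells against 223426 to 315896 in kidney. Stroma markers in MYC-2983 cells summed to between 9021 and 9963 units with Dox and between 27602 and 28871 without, and to at most 778 in the other lines. The part of this difference in the MYC-2983 changes below was not tested. A change passed the test when the adjusted p from limma, over all genes tested, was under 0.05 and the log2 change of value + 1 was over 1 in size.

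Grb10, which encodes an adaptor that binds the insulin and IGF1 receptors and restrains their signalling, was at 6198, 6511, 6726 and 6769 units in the 4 VIM-3039 libraries with Dox. In VM-3055 cells with Dox it was at 0.74, 0.85, 0 and 0 units. The VM-3055 values come from about 2 reads in all 4 libraries, which puts the ratio of means at 16480 with a 95% Poisson interval, for counting error only, of 4562 to 136100. This is the difference the gene was chosen for. Without Dox the picture was alike, with 6506, 6579, 6400 and 6261 units in VIM-3039 and 0, 1.16, 0 and 0 in VM-3055. MYC-2983 cells lay between the other lines at 941, 918, 904 and 869 units with Dox and 567, 529, 569 and 592 without. With Dox the VIM-3039 mean was 7.21-fold that of MYC-2983, given with no test because it rests on the levels Grb10 was chosen by, and the MYC-2983 mean was 2285 times that of VM-3055 (counting interval 632 to 18860).

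The Grb10 row sums over the gene's transcripts, which in mm9 lie on the minus strand of chr11:11830511-11938686. RefSeq gives 2 start sites, 9449 bases apart, and their upstream sequences are shown because they differ in kind, while the table does not tell which start was used in VIM-3039 cells. Each run covers the 240 bases that end 10 bases before the start, 5′ to 3′ on the gene's strand, with the CpG pairs in capitals. The first lies at chr11:11937434-11937673, inside the first intron of the longest annotated transcript and outside the others. The second lies at chr11:11927985-11928224, in an intron of the longer transcripts.
Grb10 outer start: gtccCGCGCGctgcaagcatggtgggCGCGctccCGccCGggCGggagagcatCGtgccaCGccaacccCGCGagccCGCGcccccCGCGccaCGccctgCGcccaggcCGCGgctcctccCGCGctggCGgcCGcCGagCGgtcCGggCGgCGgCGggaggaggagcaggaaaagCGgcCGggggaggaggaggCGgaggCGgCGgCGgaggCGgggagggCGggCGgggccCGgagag
Grb10 inner start: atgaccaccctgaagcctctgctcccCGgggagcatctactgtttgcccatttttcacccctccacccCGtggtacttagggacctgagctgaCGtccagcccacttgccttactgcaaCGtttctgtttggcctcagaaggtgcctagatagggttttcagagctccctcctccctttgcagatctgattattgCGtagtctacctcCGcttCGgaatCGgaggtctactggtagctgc
The outer run holds 40 CpG pairs and the inner run 8. Over the full RefSeq window of 300 bases, from 250 before to 50 after the start, the outer start has 45 CpG pairs and 1.65% of the 32851 mouse windows have more, while the inner start has 9 and 43.5% have more. CACGTG, the E-box that MYC binds best, was searched on both strands and is in neither Grb10 window, and it is in 7.15% of all windows. GCGTG, a core of the element bound by hypoxia-inducible factors, is in the outer window only and in 32.4% of all windows. Windows were found for 8 of the 10 members, 14 in all, with none for H19 and Peg10, and CACGTG is in 2 of the 14, those of Igf2r and Plagl1. The sequences come from RefSeq windows on GRCm38.p6, each matched once and exactly to mm9.

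With and without Dox, Grb10 differed in MYC-2983 cells and not detectably in VIM-3039 cells. In MYC-2983 cells it was 1.61-fold higher with Dox, a log2 change of 0.69 ± 0.04 (SE) with an adjusted p of 1.02e-11 that stayed under the size limit of 1, and the libraries did not overlap. In VIM-3039 cells the log2 change was 0.03 ± 0.03 with an adjusted p of 0.504. The difference between these Dox effects was -0.66 (VIM-3039 minus MYC-2983, adjusted p = 4.09e-10). It uses the VIM-3039 libraries with Dox that entered the choice of Grb10, so that p-value is not independent support. In VM-3055 cells Grb10 was too low to be tested.

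**Figure D1:**
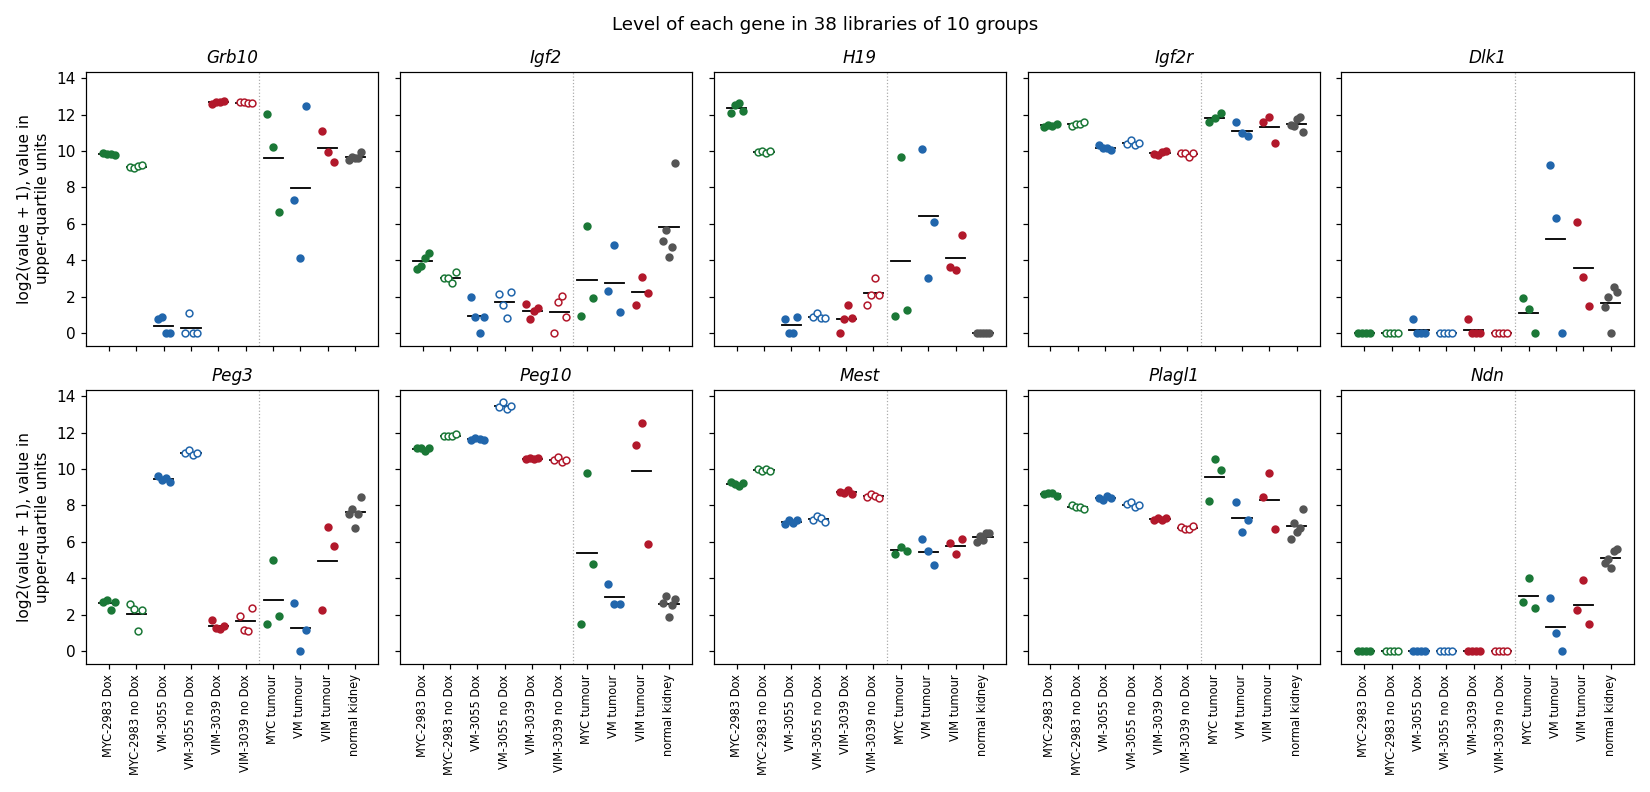
Levels of the 10 genes in all 38 libraries, 1 panel per gene, as log2(value + 1) on the vertical axis, with the 10 groups along the horizontal axis. Filled points are cells with Dox or tissue, open points are cells without Dox, and the black line is the mean of the log values. In the Grb10 panel the VM-3055 cells lie at 0 to 1.16 units and the VIM-3039 cells at 6198 to 6769 with Dox.

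Ordered by mean, the Grb10 levels ran from VIM-3039 cells with and without Dox, whose libraries overlapped, through VM, MYC and VIM tumours, MYC-2983 cells with Dox and kidney, to MYC-2983 cells without Dox and the VM-3055 cells. The VIM-3039 cells without Dox did not overlap the VM tumours, the next group. Each neighbouring pair from the VM tumours to the kidneys overlapped, kidney did not overlap MYC-2983 cells without Dox, and those did not overlap VM-3055 cells. The 5 genes whose log2 means over the 10 groups followed Grb10 most closely, among 13353 genes reaching 50 units in at least 1 group, were Ddit4l (Pearson r 0.98), Rbm12b (0.963), Ephx1 (0.95), Col8a1 (0.948) and Zfp563 (0.942). Each of the 5 had its lowest group means in VM-3055 cells, Ddit4l with a mean of 1.06 units there against 438 in VIM-3039 with Dox. These correlations rest on 10 group means that share lines and preparations. Among the members, Peg3 ran most nearly opposite to Grb10 (r -0.86) and no member had an r above 0.341, that of H19. The 10 groups include the VM-3055 and VIM-3039 cells whose Grb10 levels chose the members, so these r values are not independent support.

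Grb10 varied widely between tumours of 1 genotype. The 3 VM tumours held 156, 16.5 and 5582 units, the MYC tumours 4109, 1179 and 98.9, and the VIM tumours 2169, 982 and 685, against 721, 826, 783, 787 and 988 in kidney. The highest VM tumour was 338-fold above the lowest, and 2 of 11348 genes with a mean of 50 units or more had a larger ratio, where the median ratio was 1.57. In MYC tumours the ratio was 41.6 and 1.27% of genes had a larger one, in VIM tumours it was 3.17 and 14.5% had a larger one, and in kidney it was 1.37. VM tumour replicate 2, the one with 16.5 units, carries the mouse number of the VM-3055 line. Against kidney Grb10 did not pass in MYC (log2 change 0.99, adjusted p = 0.181), VM (-1.72, 0.324) or VIM tumours (0.47, 0.236). Single libraries set these values: without MYC tumours 2 and 3 together, which are 1 mouse, it passed as higher (2.33, adjusted p = 6.8e-05, with the lone mouse assumed to vary like the kidneys), and without VM tumour 3 it passed as lower (-3.96, adjusted p = 0.00144). In bulk samples fewer cells of a type and less RNA per cell cannot be told apart. VM tumour 3 had a stroma marker sum of 1084 units and a leukocyte sum of 3392, neither the highest nor the lowest of its group. Its tubule marker sum of 16449 units and adrenal marker sum of 62.9 were the lowest of the VM tumours. The part of cell mixture in the Grb10 levels was not tested.

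Igf2 and H19 are neighbours, 72.6 kb apart on chr7 in mm9, read from opposite parental copies under 1 control region. Igf2 encodes a growth factor of fetal life, and H19 a non-coding RNA that hosts a microRNA. In MYC-2983 cells H19 was at 4296, 5855, 6334 and 4731 units with Dox and at 983, 1033, 953 and 1029 without. It rose 5.31-fold with Dox (log2 change 2.39 ± 0.08 SE, adjusted p = 8.26e-15), with no overlap between the libraries. In VM-3055 cells H19 was at most 1.16 units in every library, and in VIM-3039 cells at most 1.97 with Dox and between 1.90 and 7.14 without. The VIM-3039 Dox change passed as lower (-1.40, adjusted p = 0.00688), but every library with Dox was at or near the floor, the groups overlapped, and the call was lost under 3 of the alternatives given at the end. The Dox effect on H19 in VM-3055 minus that in MYC-2983 was -2.88 (adjusted p = 1.91e-08), and in VIM-3039 minus MYC-2983 it was -3.79 (adjusted p = 2.23e-08). With Dox, the H19 mean of MYC-2983 was 13130 times that of VM-3055 (counting interval 3634 to 108400, from about 2 reads) and 6115 times that of VIM-3039 (2620 to 18830, from about 5 reads).

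Igf2 itself was low in cells. In MYC-2983 it was at 10.6, 11.96, 16.8 and 20.4 units with Dox and 7.22, 7.24, 5.79 and 9.25 without, a log2 change of 0.90 (adjusted p = 0.00206) under the size limit, although 1.04 without Dox replicate 1 and 1.01 without the no-Dox replicate 4. No VM-3055 or VIM-3039 library exceeded 3.80 units. Kidneys held 32.9, 49.6, 17.4, 26.1 and 636 units, so that 1 KT kidney, replicate 5, stood far above the other 4. That kidney also had the highest stroma and tubule marker sums of the 5, and their part in its Igf2 level was not tested.

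H19 was listed at 0 in all 5 kidneys, which allows up to the floor of each library. It was above 0 in all 9 tumours, but at or under the floor in 2 of the 3 MYC tumours. The MYC tumours held 0.93, 818 and 1.41 units, the VM tumours 1088, 7.22 and 69.1, and the VIM tumours 11.3, 10.03 and 40.4. It passed as higher than kidney in MYC (adjusted p = 0.0372), VM (0.0015) and VIM tumours (1.07e-04). The MYC call rested on 1 library of mouse 2983, with the other MYC tumour libraries under the floor. That call was lost when any 1 kidney was left out (adjusted p from 0.0556 to 0.0653). The tumours with the most H19, MYC tumour 2 and VM tumour 1, were also those with the highest stroma marker sums, 13775 and 7170 units against 771 to 2914 in the other 7 tumours and 1562 to 5328 in kidney, and the part of stroma was not tested. Igf2 passed as higher than kidney in no genotype. The MYC tumour with the most H19 also had the most Igf2, while in VM and VIM tumours the highest library differed between the genes. Igf2 was at 0.93, 58.6 and 2.82 units in MYC, 3.99, 27.8 and 1.23 in VM and 1.88, 7.52 and 3.67 in VIM tumours, and it passed as lower than kidney in VIM tumours only (-3.52, adjusted p = 0.0171; 0.0708 without VIM tumour 1). Whether the fall differed between genotypes was tested between VIM and VM tumours, where it did not pass.

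Igf2r encodes the receptor that carries IGF2 to lysosomes and so lowers its level. It averaged 2705 ± 137 units (SD, n = 4) with Dox and 2890 ± 164 without in MYC-2983, 1167 ± 95.9 and 1402 ± 105 in VM-3055, and 950 ± 56.7 and 907 ± 70.8 in VIM-3039. No Dox change passed, the largest being -0.27 in VM-3055 (adjusted p = 8.81e-04). Igf2r was lower than in MYC-2983 in VM-3055 (-1.22, adjusted p = 9.47e-11) and in VIM-3039 cells (-1.51, adjusted p = 7.19e-13) with Dox. Tumours ran from 1373 to 4345 units and kidneys from 2085 to 3777, and no tumour comparison passed.

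Peg3 and Peg10 are both read from the father's copy, but lie on different chromosomes. Peg3 encodes a zinc finger protein, and Peg10 derives from a retrotransposon and is needed in the placenta. Peg3 was at 794, 671, 718 and 614 units in VM-3055 cells with Dox and at 1896, 2148, 1717 and 1860 without. No library of the other lines exceeded 6.12 units. The fall with Dox in VM-3055 was 2.72-fold (log2 change -1.45 ± 0.07 SE, adjusted p = 4.94e-12) with no overlap. Peg3 was 133-fold higher in VM-3055 than in MYC-2983 with Dox, and without Dox it was lower in VIM-3039 than in VM-3055 by 9.25 on the log2 scale (adjusted p = 2.31e-15), where all VIM-3039 values lie near the floor. The members were chosen by a difference between VIM-3039 and VM-3055, so that p-value is not independent support. VM-3055, the line in which Peg3 stood far above the floor, was the line in which Grb10 did not.

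The Peg3 start, at its single RefSeq window, is shown beside the Grb10 starts because Peg3 had the opposite pattern in the cell lines. The pattern did not extend to kidney, where both genes were well above the floor, Grb10 at a mean of 821 units and Peg3 at 211. The run lies at chr7:6683141-6683380 of mm9 on the minus strand, before the annotated gene, drawn as for Grb10.
Peg3 start: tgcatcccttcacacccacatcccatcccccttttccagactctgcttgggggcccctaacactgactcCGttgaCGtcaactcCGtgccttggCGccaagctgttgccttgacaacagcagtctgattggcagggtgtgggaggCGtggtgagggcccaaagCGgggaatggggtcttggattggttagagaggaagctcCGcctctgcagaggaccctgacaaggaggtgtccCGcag
It holds 8 CpG pairs, near the 8 of the inner Grb10 start. The full window has 13 CpG pairs, and 36.3% of all windows have more. It holds GCGTG and not CACGTG.

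Peg10 was well above the floor in all 24 cell libraries. In VM-3055 it fell from 11049, 12936, 9972 and 11054 units without Dox to 3133, 3306, 3224 and 3101 with Dox, 3.53-fold (log2 change -1.81 ± 0.06 SE, adjusted p = 2.42e-14). In MYC-2983 it was at 3590, 3588, 3626 and 3845 units without Dox and 2300, 2242, 2050 and 2281 with it (-0.72 ± 0.03, adjusted p = 9.92e-13), under the size limit. In VIM-3039 it was at 1464, 1601, 1343 and 1448 units without Dox and 1510, 1530, 1498 and 1544 with it (0.06 ± 0.04, adjusted p = 0.228). The Dox effect of VIM-3039 differed from that of VM-3055 by 1.87 (adjusted p = 1.18e-13), and that of VM-3055 differed from that of MYC-2983 by -1.09 (adjusted p = 7.29e-10). For Peg3 the corresponding differences were 1.197 (adjusted p = 0.00373) and -2.01 (adjusted p = 1.71e-05), with VIM-3039 and MYC-2983 near the floor. These differences use libraries with Dox that entered the choice of the members, so their p-values are not independent support.

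The genes beside them, looked at after the member values were seen, followed in part. Usp29, which lies beside Peg3 and is also read from the father's copy, was at 0 in MYC-2983 and VIM-3039 cells and averaged 46.3 ± 5.81 units (SD, n = 4) with Dox and 105.6 ± 16.04 without in VM-3055, a fall of 1.17 on the log2 scale (adjusted p = 6.89e-07). Sgce, which starts beside Peg10 on the other strand, fell with Dox in MYC-2983 (-1.08, adjusted p = 2.06e-14), VM-3055 (-1.65, adjusted p = 5.55e-13) and VIM-3039 (-1.79, adjusted p = 4.82e-15). The Sgce effects in VIM-3039 and VM-3055 differed by -0.14 with an adjusted p of 0.336, where those of Peg10 differed by 1.87. Peg10 and Sgce therefore moved apart in VIM-3039 cells.

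**Figure D2:**
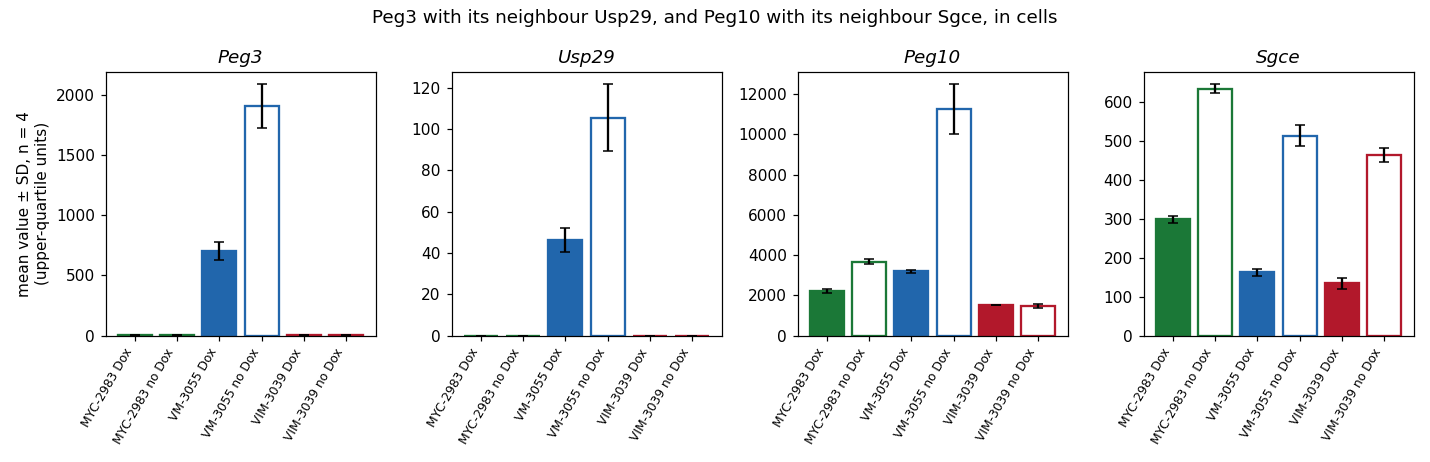
Levels of Peg3, Usp29, Peg10 and Sgce in the 6 cell groups, in units of the deposited table, each panel on its own axis from 0. Bars are means and error bars are SD over 4 libraries. Peg3 and Usp29 stand in VM-3055 only, while Sgce falls with Dox in all 3 lines and Peg10 does not in VIM-3039, where it averaged 1520 units with Dox and 1464 without.

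In tissue Peg3 was highest in kidney. Kidneys held 185, 223, 108, 184 and 355 units, the MYC tumours 1.87, 30.9 and 2.82, the VM tumours 5.33, 0 and 1.23, and the VIM tumours 3.77, 110 and 53.5. Peg3 passed as lower than kidney in MYC (-4.79, adjusted p = 7.78e-04), VM (-6.35, adjusted p = 2.07e-05) and VIM tumours (-2.69, adjusted p = 0.0264), the last lost without kidney 2 (0.051) or kidney 5 (0.0538). One VIM tumour overlapped the kidneys, while no MYC or VM tumour did. Tubule markers summed to between 9678 and 25908 units in the 9 tumours, against 223426 to 315896 in kidney, and endothelium markers to between 312 and 3660 against 4815 to 8373, and their part in the Peg3 fall was not tested.

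Peg10 went the other way in VIM tumours. They held 2539, 5895 and 58.7 units against 5.19, 7.30, 2.68, 4.89 and 6.33 in kidney, a 537-fold difference of means (log2 change 7.31 ± 1.22 SE, adjusted p = 7.65e-04) with no overlap. The VM tumours, at 11.98, 5.15 and 4.93 units, lay below every VIM tumour, and the MYC tumours held 1.87, 892 and 26.8. VIM over VM tumours gave 6.95 with an unadjusted p of 0.00129 and an adjusted p of 0.137, or 8.96 with an adjusted p of 0.0106 without VIM tumour 3. Over the same VIM tumours the leukocyte marker sums were 14083, 7372 and 7868 units and the stroma sums 1173, 2914 and 2831, and their part was not tested.

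Mest, which encodes a membrane enzyme of the hydrolase fold, Plagl1, which encodes a zinc finger transcription factor that acts on other imprinted genes, Dlk1, which encodes a Notch-like membrane protein, and Ndn, which encodes the MAGE family protein necdin, complete the group. Mest was at 623, 568, 539 and 612 units with Dox and 1024, 965, 1030 and 962 without in MYC-2983 (-0.77 ± 0.04 SE, adjusted p = 1.24e-11). It was at 432, 407, 456 and 398 units with Dox and 347, 391, 363 and 343 without in VIM-3039 (0.23 ± 0.06, adjusted p = 0.00192). Neither passed the size limit, while the difference of those effects was 0.99 (adjusted p = 4.97e-10). In VM-3055 Mest was at 124 to 146 units with Dox and 137 to 172 without, and it was lower than in MYC-2983 with Dox (-2.09, adjusted p = 5.69e-12). Tumours held 25.9 to 70.6 units and kidneys 64.0 to 87.9, and no tumour comparison passed.

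Plagl1 was higher with Dox in each line without passing the size limit. It averaged 396 ± 18.2 against 242 ± 12.6 units (SD, n = 4) in MYC-2983 (0.71, adjusted p = 5.89e-10), 339 ± 24.8 against 264 ± 21.7 in VM-3055 (0.36, adjusted p = 4.31e-04) and 153 ± 6.65 against 108 ± 7.12 in VIM-3039 (0.50, adjusted p = 7.13e-05). In each line the libraries with and without Dox did not overlap. Plagl1 rose in MYC tumours, with 303, 1488 and 982 units against 70.9, 133, 92.4, 107 and 221 in kidney (2.39, adjusted p = 0.00875), although without mouse 2983 it did not pass (1.38, adjusted p = 0.0722). In VIM tumours it was at 348, 868 and 105 units (1.45, adjusted p = 0.0729) and in VM tumours at 292, 91.8 and 149.

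Dlk1 and Ndn were at the floor in culture, Dlk1 at 0.74 units or less and Ndn at 0 in all 24 cell libraries. In tissue Dlk1 was at 597, 79.4 and 0 units in VM tumours and at 67.8, 7.52 and 1.84 in VIM tumours, against 0 to 4.89 in kidney and 0 to 2.80 in MYC tumours. The VM change did not pass (3.54, adjusted p = 0.0989) but did without VM tumour 3 (6.13, adjusted p = 7.76e-04). VM tumour 1, with 597 units, also had the highest stroma (7170) and endothelium (3660) marker sums of the VM tumours, and their part was not tested. Ndn was lower than in kidney, where it was at 27.7, 32.1, 22.8, 44.0 and 48.1 units. It was at 5.60, 15.4 and 4.24 in MYC (-2.03, adjusted p = 0.0063), 6.66, 1.03 and 0 in VM (-3.79, adjusted p = 7.31e-04) and 3.77, 13.8 and 1.84 in VIM tumours (-2.57, adjusted p = 0.00362), with no overlap in any genotype. The MYC call was lost with the 4 tissue groups in 1 fit (adjusted p = 0.0556) and with only the B6 kidneys (0.079), as was the VIM call with only the B6 kidneys (0.0908). The tubule and endothelium sums given with Peg3 fell beside Ndn as well, and their part was not tested.

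As a group, the members passed for Dox at shares not far from those of all genes. In MYC-2983 1 of 8 tested members passed (H19, higher), where 19.5% of 15104 genes did, and the members' median log2 change was 0.62 against -0.13 over all genes. In VM-3055 2 of 7 passed, Peg3 and Peg10, both lower, where 24.8% of genes passed, with medians of -0.49 and -0.26. In VIM-3039 1 of 8 passed, the H19 near its floor, where 24.3% of genes passed, with medians of 0.06 and -0.15. Members whose Dox effect differed by over 1 between lines were 2 of 8 tested for VIM-3039 minus VM-3055 (Peg3 and Peg10, background 6.05%), 4 for VM-3055 minus MYC-2983 (Igf2, H19, Peg3 and Peg10, background 8.78%; Igf2 is at the floor in VM-3055 and was lost with a pseudocount of 0.1 or 10 and with quantile normalization) and 1 for VIM-3039 minus MYC-2983 (H19, background 9.06%). These 3 comparisons share their lines. Grb10 is among the 8 tested in each and passed in none, which leaves 7 without it. Each comparison uses libraries with Dox of VM-3055 or VIM-3039, whose difference chose the members, so these counts are not independent support.

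**Figure D3:**
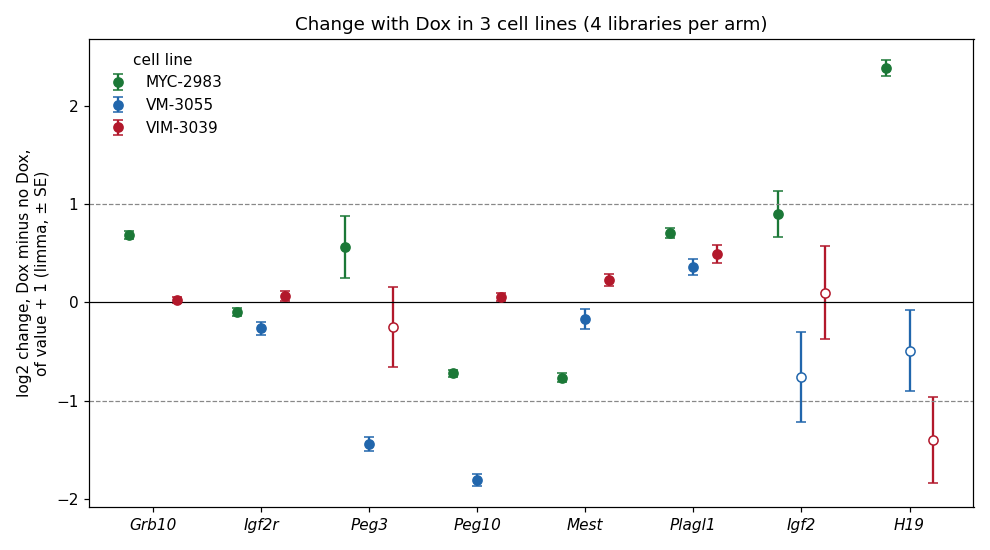
Log2 change with Dox of 8 members in the 3 lines, on the log2(value + 1) scale, as points with the SE of the fit. Open points are genes with a mean under 5 units with and without Dox, and Grb10 of VM-3055 was too low to be tested. Peg10 sits at -1.81 in VM-3055, -0.72 in MYC-2983 and 0.06 in VIM-3039.

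Between lines most members differed. Grb10 is left out of these counts, since its levels in VM-3055 and VIM-3039 chose the members. With Dox 5 of 7 tested members passed for VM-3055 over MYC-2983, Peg3 higher and Igf2, H19, Igf2r and Mest lower, where 24.6% of genes passed. For VIM-3039 over MYC-2983 with Dox 5 of 7 passed, Igf2, H19, Igf2r, Peg3 and Plagl1, all lower, where 23.9% passed, and Peg3 was near the floor in both lines and was lost with a pseudocount of 10 or quantile normalization. Without Dox 6 of 7 passed in each comparison with MYC-2983, where 24.9% and 26.2% of genes passed. Of these, Igf2 was lost in both comparisons with a pseudocount of 10 and with quantile normalization (adjusted p = 0.207 for VM-3055 and 0.0886 for VIM-3039), Igf2r of VM-3055 fell just under the size limit with TMM (-0.997) and quantile scaling (-0.998), and Plagl1 of VIM-3039 with quantile scaling (-0.874). For VIM-3039 over VM-3055 without Dox 5 of 7 passed, where 21.7% of genes did. Those were H19 (1.28, adjusted p = 0.00558) and Mest (1.23, adjusted p = 1.76e-09), both higher, and Peg3, Peg10 (-2.94, adjusted p = 1.19e-15) and Plagl1 (-1.27, adjusted p = 2.85e-09), all lower. H19 was at most 7.14 units in these libraries, near the floor, and was lost with a pseudocount of 10 (0.341, under the size limit). The members were chosen by a difference between VIM-3039 and VM-3055, so this count and its p-values are not independent support. With Dox, as a description, 6 of 10 members, here with Grb10 counted, did not overlap between VIM-3039 and VM-3055. Of 14060 genes above 0 in at least 4 of these libraries 61.3% did not overlap. That base leaves out Dlk1 and Ndn, so the shares are not directly comparable. Apart from Grb10, the members without overlap were Peg3, Plagl1, Peg10, Igf2r and Mest. Peg3 was 421-fold lower in VIM-3039 (counting interval 222 to 920, from about 9 reads there). Plagl1 was 2.21-fold, Peg10 2.10-fold and Igf2r 1.23-fold lower in VIM-3039, and Mest 3.10-fold higher.

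Against kidney 4 of 10 members passed in MYC tumours (37.1% of genes), 3 in VM tumours (39.8%) and 5 in VIM tumours (39.6%). The members' median log2 changes were 0.00, -0.60 and 0.13, against 0.12, -0.05 and 0.01 over all genes. The 3 comparisons share the 5 kidneys. H19 (higher), Peg3 and Ndn (both lower) passed in all 3 genotypes, with the losses under other settings given above, Plagl1 in MYC tumours, and Igf2 and Peg10 in VIM tumours. For VIM over VM tumours 0 of 10 passed by limma, where 0.249% of genes did (40 of 16096, and 1831 at an unadjusted p under 0.05).

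**Figure D4:**
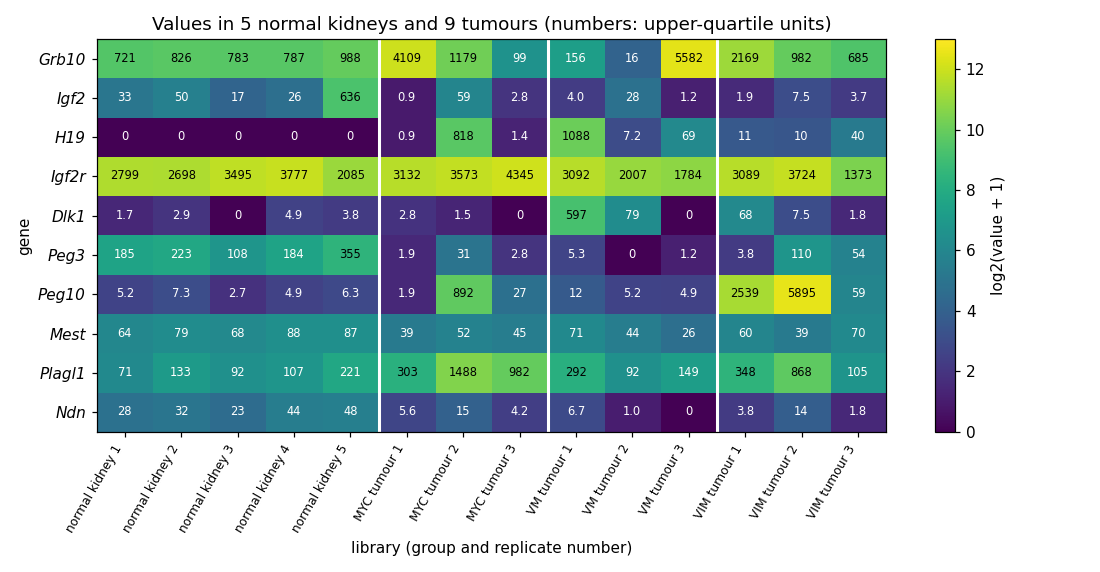
Values of the 10 members in the 5 kidneys and 9 tumours, in units of the deposited table, coloured by log2(value + 1). Rows are genes and columns are libraries. Grb10 runs from 16.5 to 5582 units over the 3 VM tumours and Peg10 from 58.7 to 5895 over the 3 VIM tumours, while Igf2r stays between 1373 and 4345 over all 9.

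The 2 libraries of mouse 2983, MYC tumours 2 and 3, allow a comparison within 1 animal. Replicate 2 was higher in Grb10 (11.9-fold), Igf2 (13.8-fold), Peg3 (7.29-fold) and Peg10 (33.2-fold), while Plagl1 differed 1.52-fold, and H19 was at 818 units against 1.41. Of 11660 genes, 2.34% were over 10-fold apart. Replicate 2 also had a stroma marker sum of 13775 units against 1250 in replicate 3, and the part of stroma was not tested. The labels do not say whether the libraries are separate tumours.

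Cells and tumour of the same mouse number differed for VM. Peg10 was 619-fold higher and Peg3 at least 226-fold higher in VM-3055 cells with Dox than in VM tumour 2, while Dlk1 was at 79.4 units in the tumour and at a mean of 0.185 in the cells. Grb10 was low in both, at 16.5 units in the tumour.

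Other imprinted genes, 48 of 49 listed found in the table, gave the wider setting. With Dox 6 of 35 tested rose and 8 fell in MYC-2983, 3 of 33 rose and 5 fell in VM-3055, and 4 of 31 rose and 4 fell in VIM-3039. That is 40.0%, 24.2% and 25.8% of the list, against 19.5%, 24.8% and 24.3% of all genes. Phlda2, which limits placental growth, rose in MYC-2983 (3.35) and VM-3055 (3.04), Gatm, an enzyme of creatine synthesis, rose in MYC-2983 (2.48), VM-3055 (2.03) and VIM-3039 (1.10), and Cdkn1c, a cell cycle inhibitor, fell in MYC-2983 (-1.14). Between lines this list also passed above the share of all genes. VM-3055 and VIM-3039 over MYC-2983 gave 40.5% and 42.9% with Dox, against 24.6% and 23.9%, and 43.2% and 51.4% without, against 24.9% and 26.2%. VIM-3039 over VM-3055 without Dox gave 25.7%, against 21.7%. Against kidney 3 of 42 rose and 10 fell in MYC, 3 of 40 and 15 in VM, and 5 of 42 and 11 in VIM tumours, or 31%, 45.0% and 38.1% against 37.1%, 39.8% and 39.6% of all genes. The amino acid transporter Slc38a4 rose in MYC (4.82), VM (5.12) and VIM tumours (5.99), and the tubule transporter Slc22a2 fell in each (-6.21, -8.10 and -5.88).

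The insulin and IGF pathway, in which Grb10, Igf2 and Igf2r act, was followed through 49 further genes, all in the table. With Dox 2 of 47 rose and 7 fell in MYC-2983, 1 of 43 and 5 in VM-3055, and 1 of 44 and 7 in VIM-3039, or 19.1%, 14% and 18.2% against 19.5%, 24.8% and 24.3% of all genes. The IGF-binding protein Igfbp2 fell in each line (-1.61, -2.64 and -2.34). For VIM-3039 over VM-3055 without Dox 4 of 44 were higher and 5 lower, 20.5% against 21.7% of all genes, and among the adaptors related to Grb10, Grb14 was higher (1.01) and Grb7 lower (-3.16). In tumours 11 of 47 rose and 8 fell in MYC, 8 and 10 in VM, and 8 and 12 in VIM, or 40.4%, 38.3% and 42.6% against 37.1%, 39.8% and 39.6% of all genes, with Igfbp2 higher in each (4.98, 6.04 and 4.66) and the insulin receptor-related Insrr lower (-7.79, -8.16 and -7.47).

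Of 12 genes that keep imprints, 0 of those tested passed for Dox in VM-3055, 1 of 10 fell in MYC-2983 (Zfp57, a zinc finger protein that binds imprint control regions, -1.11) and 2 rose in VIM-3039, the methylation partners Uhrf1 (1.204) and Dnmt1 (1.08). In MYC-2983, VM-3055 and VIM-3039 these are 10%, 0% and 20% of those tested, against 19.5%, 24.8% and 24.3% of all genes. Zfp57 was the gene of this list that differed between VIM-3039 and VM-3055 without Dox, at 333 against 55.3 units (2.57). That is 10% of those tested, against 21.7% of all genes. In tumours 4 rose and 1 fell in MYC, 4 and 0 in VM, and 4 and 1 in VIM, or 41.7%, 33.3% and 41.7% against 37.1%, 39.8% and 39.6% of all genes, with Uhrf1 higher in each (5.47, 4.33 and 3.98).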

How the data were processed

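RNA was sequenced from 24 cell, 9 tumour and 5 kidney libraries made with a stranded mRNA kit. Per the study's methods, the authors aligned reads to mm9 with MapSplice, profiled the alignments with Picard 1.64, sorted and indexed them with SAMtools, filtered them with UBU, and estimated counts per gene with RSEM. The deposited signal is that estimate scaled to an upper quartile of 1000, not counts. The strand setting of the counting was not given in the sources used here, so Airn, which overlaps Igf2r, is uncertain.

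The 10 members and the gene lists were chosen with earlier results of these data known. Groups came from the sample labels, and line numbers 3055 and 3039 from the study. Two-sided limma 3.58.1 tests (R 4.3.3, eBayes with trend) were run on log2(value + 1) for genes above 0 in at least 4 cell or 2 tissue libraries, with Benjamini-Hochberg adjustment over all genes. Libraries of 1 mouse were averaged, so MYC tumours were n = 2 mice. The floor is 3 reads, from the step between low values. Named genes were the 10 members, genes drawn from the 2 largest rises and falls of each list at 50 units or more, and the 5 nearest to Grb10. Others that met this rule, such as Dio3 and Sfmbt2, were left out, and genes beside the members were named outside it. Replicate numbers did not pair the cells. The scripts were tested on simulated data. Precision was set by 8215703 to 36578653 estimated reads a library. Alternatives changed the pseudocount, filter, scaling, moderation and libraries.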

Additional observations from a re-analysis of the deposited data

Results flagged for a closer look

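In 3 cases 1 library stood apart within groups of 4 or 5 libraries, out of 54 gene and group pairs looked at, where chance marks about 1 in 20. Igf2 was at 636 units in 1 KT kidney against 17.4 to 49.6 in the other 4. Peg10 was at 3845 units in 1 MYC-2983 library without Dox against 3588 to 3626 in the others. Grb10 was at 1.16 units in 1 VM-3055 library without Dox and at 0 in the others, a matter of about 3 reads.

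The effect of Dox differed between lines for 14 pairings of a member and 2 lines, by an adjusted p under 0.05 for the interaction of line and Dox in limma, with no limit on size. These were 4 of 8, 6 of 8 and 4 of 8 members in the 3 pairs of lines below, where 33.3%, 46.2% and 47.6% of all genes had such a p. The counts include Grb10 and use libraries that entered the choice of the members, so they are not independent support. For VIM-3039 minus VM-3055 the log2 differences were Igf2r 0.33, Peg3 1.197, Peg10 1.87 and Mest 0.40. For VM-3055 minus MYC-2983 they were Igf2 -1.66, H19 -2.88, Peg3 -2.01, Peg10 -1.09, Mest 0.60 and Plagl1 -0.35. For VIM-3039 minus MYC-2983 they were Grb10 -0.66, H19 -3.79, Peg10 0.78 and Mest 0.99. Where a line is at the floor, as for Peg3 in VIM-3039 and MYC-2983 and for H19 in VM-3055 and VIM-3039, the difference reflects a change that could be measured in 1 line only.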

How the results depend on the processing

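No member changed direction past the threshold under any alternative run. Of 2228 recomputed member values, 2155 kept their side of the threshold, 40 no longer passed and 33 newly passed. In 22 the sign changed with an adjusted p of 0.05 or more both ways. Counts of passing members moved by over 1.5 times as follows. With quantile normalization they were 3 for Dox in MYC-2983 (Igf2 and Peg3 gained), 0 for Dox in VIM-3039 (H19 lost), 5 for VM tumours (Dlk1 and Peg10 gained) and 2 for the VIM-3039 minus MYC-2983 Dox effect (Mest gained). Quantile normalization also moved the median log2 change of all genes for Dox in VM-3055 from -0.26 to -0.02. With a pseudocount of 10, or a mean of at least 10 units, Dox in VIM-3039 gave 0. With only the B6 kidneys MYC tumours gave 2 and VIM tumours 3, and without a filter or without moderation VIM tumours gave 3. With the 4 tissue groups in 1 fit VIM over VM tumours gave 1 (Peg10, adjusted p = 0.0473). Losses between lines are given beside the results. In tumours Mest (MYC, quantile normalization), Dlk1 (VM, pseudocount of 10), Igf2 (VM, TMM) and Plagl1 (VIM, quantile normalization) newly passed, and Peg3 in VIM tumours was lost with only KT kidneys (adjusted p = 0.0556).

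Leaving out each replicate gave 1 to 2 for Dox in MYC-2983, 2 to 3 in VM-3055 and 1 in VIM-3039. It gave 3 to 4 for MYC tumours, 3 to 5 for VM tumours, 4 to 7 for VIM tumours, 0 to 1 for VIM over VM tumours and 1 to 2 for the VIM-3039 minus MYC-2983 Dox effect, in which Mest passed in the settings with 2 or, without VIM-3039 no-Dox replicate 1, Igf2. The other counts did not move. H19 in MYC tumours was also lost with a pseudocount of 10 (adjusted p = 0.0695), without a filter (0.111), with the 3 libraries kept separate (0.0767) and with only KT kidneys (0.119). Igf2 in VIM tumours was lost with a pseudocount of 10 (0.0574). Single libraries also decided Igf2 and Peg10 in MYC tumours (-4.85 without mouse 2983 and 6.25 without replicate 1, both passing), Igf2 in VM tumours (-4.06 without replicate 2, -3.43 without kidney 3), Mest in VM tumours (-1.15 without replicate 1), Dlk1 and Plagl1 in VIM tumours (2.95 and 2.24 without replicate 3) and Igf2 for Dox in VM-3055 (-1.11 without Dox replicate 1). The causes were not tested.

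With a pseudocount of 10 the count over all genes fell from 2942 to 1936 for Dox in MYC-2983, from 3635 to 2314 and from 3515 to 2198 for VM-3055 and VIM-3039 over MYC-2983 with Dox, from 3784 to 2522 and from 3141 to 1981 for VM-3055 over MYC-2983 and VIM-3039 over VM-3055 without Dox, and to 458, 675 and 674 from 918, 1389 and 1416 for the differences of Dox effects. Other comparisons of cells or of tumours with kidney moved by less than 1.5 times under it. With a mean of at least 10 units the differences gave 541, 856 and 854 and VIM-3039 over MYC-2983 with Dox 2342, and with quantile normalization the VIM-3039 minus VM-3055 and VM-3055 minus MYC-2983 differences gave 556 and 883. For VIM over VM tumours the count ran from 0 without moderation to 454 with the 4 tissue groups in 1 fit, against 40. Replicate numbers did not pair VM-3055 or VIM-3039 libraries (mean correlation of same-numbered libraries -0.0191 and 0.00528), and a fit with the replicate block gave 2 passing members for Dox in VM-3055, 1 in VIM-3039, 5 for VIM-3039 over VM-3055 without Dox and 2 for the difference of Dox effects, the counts without it. The test on reads recovered from the scaled values was not run, because not all low values came out whole. Per library 94.1% to 95.9% of values under 20 reads lay within 0.02 of a whole read. Depth sets the floor at 1.16 to 5.65 units, so Dlk1, Ndn, Igf2 and, in some lines, Grb10, H19 and Peg3 cannot be ranked below it.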

Other observations

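Genes near the members showed patterns of their own, looked at after the data were seen. Ddc, which lies beside Grb10 and encodes an enzyme of dopamine and serotonin synthesis, was higher in VIM tumours than in kidney (log2 change 1.44, adjusted p = 0.00308), where Grb10 did not pass. In the cell lines Ddc was lower in VIM-3039 than in MYC-2983 with Dox (-4.15, adjusted p = 6.68e-10), where Grb10 was higher. Airn, the non-coding RNA that overlaps Igf2r on the other strand, was higher with Dox in MYC-2983 (1.62), VM-3055 (2.06) and VIM-3039 (1.65). Its levels were low, averaging 3.78 against 0.60, 9.03 against 1.87 and 10.4 against 3.10 units with and without Dox. Without Dox 4, 3 and 3 libraries of these lines were at or under the floor. Airn reads cannot be told from those of Igf2r without strand. Meg3, the non-coding RNA of the Dlk1 region, was higher in VIM tumours (2.61, adjusted p = 0.0141), where Dlk1 did not pass.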
